A study of Mus musculus with 3 samples.

Results

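Sqstm1 and 9 genes of the Nrf2 antioxidant pathway were described in RNA bound to chromatin of mouse macrophages. The 10 genes are Sqstm1, Nfe2l2, Keap1, Hmox1, Nqo1, Gclm, Gclc, Txnrd1, Srxn1 and Slc7a11. They were chosen by symbol from 55536 annotated genes, and all 10 symbols were found in every library. The cells were bone-marrow-derived macrophages of C57BL/6J mice, primary phagocytes grown from marrow precursors, treated with lipid A at 100 ng/ml for 30 min. Lipid A is the membrane anchor of bacterial endotoxin and the ligand of TLR4. The chromatin fraction holds nascent transcripts and RNA that stays at the gene, and ribosomal RNA was removed before sequencing. The study has 1 group of 3 libraries, made from 1 µg (library 1), 250 ng (library 2) and 500 ng (library 3) of RNA. The labels call them biological replicates but give them 1 donor record, so separate mice cannot be assumed and p-values measure only the spread between these libraries, which may be technical. No unstimulated cells were analysed here, so the values below are levels after lipid A and not changes caused by it.

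Nrf2, the protein of Nfe2l2, is a transcription factor that is normally held and marked for degradation by Keap1, the adaptor of a Cul3 ubiquitin ligase. When Keap1 is disabled by oxidants or electrophiles, Nrf2 enters the nucleus, pairs with small Maf proteins and binds antioxidant response elements near genes for glutathione synthesis, the thioredoxin system and heme breakdown. Sqstm1 encodes p62, a receptor that carries ubiquitin-marked cargo into autophagosomes. It also binds Keap1, which releases Nrf2, and it is itself a known Nrf2 target. In macrophages the pathway is known for limiting oxidative damage and for dampening inflammatory cytokines.

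Library totals were 16301150, 17033725 and 16205704 expected counts in libraries 1 to 3. The macrophage label was matched by its markers, since 10 of 10 were detected, with a median level of 92.9 ± 15.2 TPM (SD, n = 3). TPM measures abundance per transcript length, relative to the sum over the whole library. Detection meant an average of 10 or more expected counts over the libraries. Sirpa (673 TPM), Csf1r (202 TPM) and Cd14 (183 TPM) were the highest of these markers. Of 22 markers of T, NK, B, neutrophil, stromal, endothelial and erythroid cells, 5 were detected. Together they held 0.00137% to 0.00174% of counts, and Cd3e and Ncr1 were among those at 0 counts in all libraries. Alas2 (4.07 TPM), Kdr (1.18 TPM) and Pecam1 (0.48 TPM) were the highest of them. In a second quantification of the same reads, deposited by the authors, the T-cell marker Cd3d was the highest, at 14.1 TPM. Alas2 (9.21 TPM) and Pecam1 (5.21 TPM) followed there.

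Of the 10 genes, 9 were detected, against 49.9% of the 22028 annotated protein-coding genes. The detected 9 passed on their own level, so the count describes this choice of genes. Their levels spanned from 746 TPM to 2.49 TPM, and 3 of 10 reached a mean of 100 TPM, against 2.91% of the 10983 detected protein-coding genes. Those 3 were Sqstm1, Nfe2l2 and Txnrd1. Together the 10 genes held between 0.16% and 0.215% of expected counts in each library, and Sqstm1 alone made up 60.3% of their summed TPM. In bulk RNA, fewer expressing cells and less RNA per cell cannot be told apart.

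**Figure D1:**
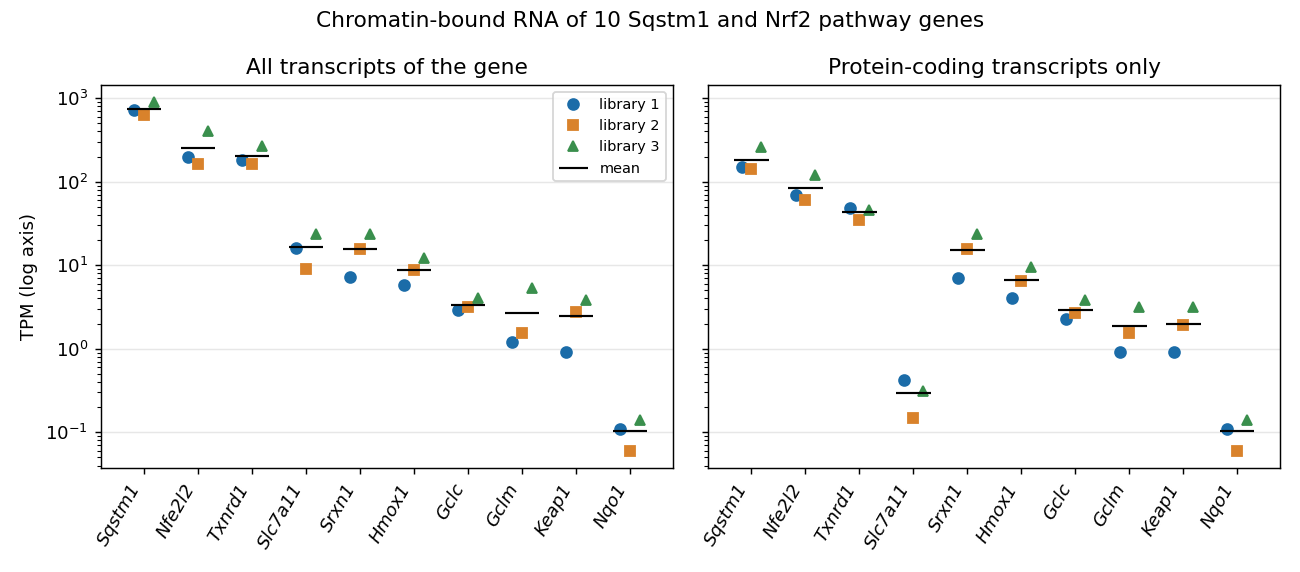
Level of each of the 10 genes in libraries 1 to 3 (points) with their mean (line), in TPM on a log axis, from all annotated transcripts (left) and from protein-coding transcripts only (right). Sqstm1, Nfe2l2 and Txnrd1 lead in both panels, Slc7a11 drops to a mean of 0.293 TPM on the right against 16.4 TPM on the left, and Nqo1 is lowest in both.

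Sqstm1 (ENSMUSG00000015837.15, mm10 chromosome 11, 50199366 to 50210827, minus strand) had 716, 631 and 891 TPM in libraries 1, 2 and 3. Its mean of 746 ± 133 TPM ranked 6 among detected protein-coding genes. All 3 libraries lay far above every other gene of the set, and library 3 was the highest. Read counts gave a lower place. Its 14037, 10944 and 12298 expected counts ranked 92, while a large part of the TPM was assigned to short transcripts.

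Only 24.3% of the abundance of Sqstm1 was given to protein-coding transcripts. The remaining 75.7% ± 4.5 belonged to 3 short transcripts of the annotated class retained intron, which keep intron sequence and have no coding frame assigned. Sqstm1-207, of 585 bases, held 36.6%, 35.7% and 33% of the gene's abundance in libraries 1, 2 and 3. Sqstm1-206, of 457 bases, held 25.1% ± 2.39, and Sqstm1-203, of 582 bases, held 15.6% ± 4.35. The full-length coding transcript Sqstm1-201, of 2673 bases, held 13% ± 3.95. By reads the picture turned round, as Sqstm1-201 held the most, at 5582, 3698 and 6118 expected counts, against 2715, 1931 and 1673 for Sqstm1-207. The retained-intron share of Sqstm1 by expected counts was 32.2% ± 6.4.

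Library fragments were 250 to 400 bases long per the labels, close to the length of these short transcripts. Sqstm1-206 had 187 TPM from 964 expected counts, and Sqstm1-201 had 101 TPM from 5133. A level that leaves out these short transcripts is the TPM summed over protein-coding transcripts. It still depends on how the reads that both kinds share were split. On that scale Sqstm1 had 148, 143 and 261 TPM in libraries 1, 2 and 3. The mean of 184 ± 66.6 TPM ranked 39 among detected protein-coding genes, and Sqstm1 was still the highest of the 10. In the second quantification of the same reads, deposited by the authors, Sqstm1 had 1349, 794 and 1356 TPM, rank 10.

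The sequence across the end of exon 5, where Sqstm1-207 runs on into the intron, is shown because that transcript led the gene. The line gives the last 30 bases of the exon in lower case and the first 30 bases of the intron in capitals. It was taken from the GENCODE M21 transcripts and lies at chr11:50205993-50206052 on the minus strand of mm10.
Sqstm1-207 intron 5: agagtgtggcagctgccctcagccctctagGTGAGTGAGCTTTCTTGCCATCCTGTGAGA
The intron part opens with GT, the first bases of an ordinary 5′ splice site. Sqstm1-207 carries 344 of the 2988 bases of intron 5, and 61.9% of its length lies outside every coding exon of the gene. In Sqstm1-203 and Sqstm1-206, 87 and 84 bases lie outside every coding exon, at intron 7 and at the end of intron 5. These are 14.9% and 18.4% of their lengths, so most of their sequence is shared with coding transcripts and the split of reads there is an estimate.

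**Figure D2:**
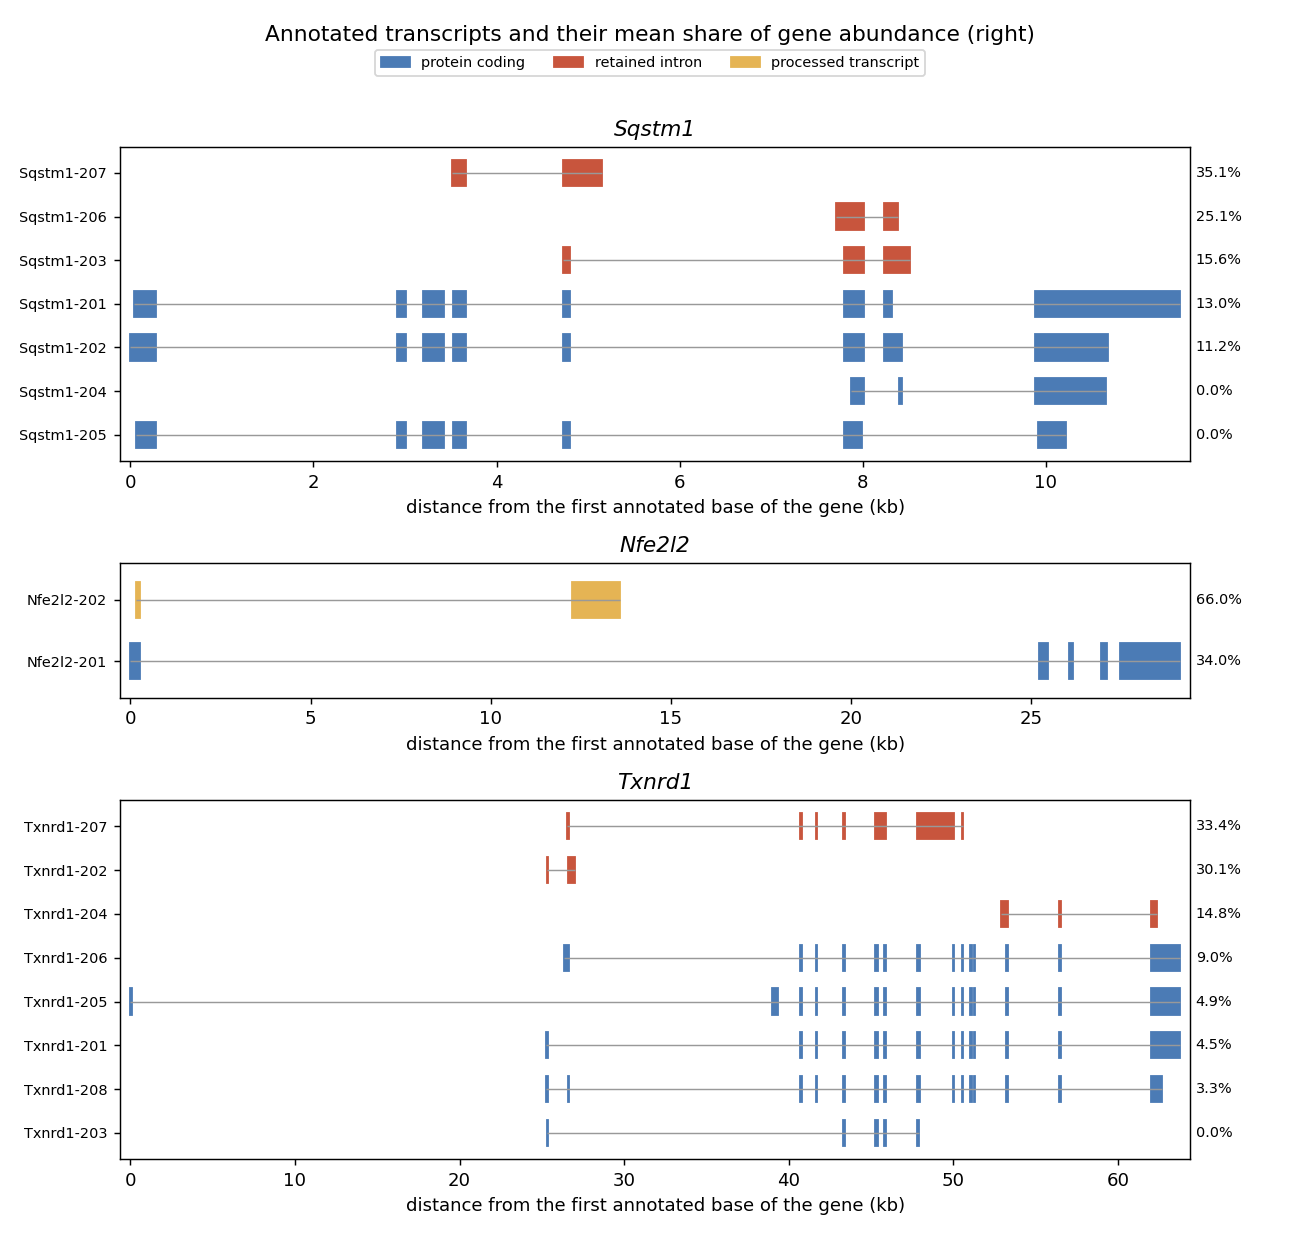
Exons (boxes) of every annotated transcript of Sqstm1, Nfe2l2 and Txnrd1 against the distance from the first annotated base of the gene in kb, coloured by annotated class, with the mean share of the gene's abundance at the right. Sqstm1-207 (35.1%), Nfe2l2-202 (66.0%) and Txnrd1-207 (33.4%) lead their genes, and none of them is a coding transcript.

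The neighbours of Sqstm1 had few reads. Mrnip, which overlaps its 3′ end by 750 bases on the opposite strand, held 22.2, 23.6 and 10.2 expected counts. Mgat4b starts 63 bases away in the other direction and held 259, 379 and 290 expected counts. The strand setting of the counting is not given in the sources used here, so reads in such overlaps are uncertain, but both neighbours were low beside Sqstm1.

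Nfe2l2 (ENSMUSG00000015839.6, mm10 chromosome 2, 75675513 to 75704641, minus strand), the gene of Nrf2 itself, had 200, 161 and 406 TPM in libraries 1, 2 and 3. Its mean was 256 ± 131 TPM, rank 69, and library 3 stood above the other two. Within each library Sqstm1 exceeded Nfe2l2 by 1.84, 1.97 and 1.14 on the log2(TPM + 0.1) scale, a mean difference of 1.65 ± 0.45. The sign was the same in 3 of 3 libraries, and an exact sign-flip permutation test over libraries (two-sided) gave p = 0.25, the smallest that 3 libraries allow. The pairs compared here and below follow the order of the means over the same libraries, so the direction of each mean difference was set by that order. Sqstm1 also stayed above Nfe2l2 by 1.15 on coding transcripts and by 2.15 in the second quantification, and by 0.61 in log2 CPM, which has no length correction.

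Nfe2l2 has 2 annotated transcripts, and the noncoding one led. Nfe2l2-202 held 64.9%, 62.6% and 70.5% of the abundance in libraries 1, 2 and 3, and 4328, 2990 and 5597 expected counts. The coding transcript Nfe2l2-201 held 4261, 3302 and 4332 expected counts. The leading transcript by reads therefore differed between libraries, with Nfe2l2-201 ahead in library 2. Nfe2l2-202 joins a first exon of 126 bases to a second exon of 1321 bases that lies inside intron 1, 11991 bases after the end of exon 1. Intron 1 is 24934 bases long. Of the length of Nfe2l2-202, 91.3% lies outside the coding exons, where spliced Nfe2l2-201 has no sequence. Unspliced RNA of the gene has the same sequence and strand in that part of intron 1. Its reads and those of Nfe2l2-202 cannot be told apart there.

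On coding transcripts alone Nfe2l2 had 70.2, 60.2 and 120 TPM, a mean of 83.4 ± 31.9 TPM, rank 138. It stayed the second of the 10 genes on that scale. E030042O20Rik, a noncoding gene that starts 129 bases away on the opposite strand, held 76, 27 and 62 expected counts.

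Keap1 (ENSMUSG00000003308.15, chromosome 9, 21229730 to 21239361, minus strand), which restrains Nrf2, was far lower. It had 0.91, 2.78 and 3.79 TPM in libraries 1, 2 and 3, a mean of 2.49 ± 1.46 TPM, rank 7210. Library 1 was the lowest by a wide margin. Its 75.9, 149 and 157 expected counts lay almost all on coding transcripts, with no stable leader: Keap1-205 held 64.6%, 0% and 40.1% of the abundance, and Keap1-201 held 0%, 46.1% and 12%. The antisense gene Gm16754 overlaps Keap1 by 3317 bases and held 5.1, 13.2 and 16.4 expected counts. Its part in the Keap1 values was not tested.

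Txnrd1 (ENSMUSG00000020250.10, chromosome 10, 82833951 to 82897712, plus strand) encodes the cytosolic thioredoxin reductase, which keeps thioredoxin reduced with NADPH. Among the 7 enzyme and transporter genes of the set it was the highest, at 184, 162 and 270 TPM in libraries 1, 2 and 3, a mean of 205 ± 57 TPM and rank 114. Nfe2l2 and Txnrd1 were not apart, with a difference of 0.12, -0.01 and 0.59 in log2 and a mean of 0.23 ± 0.31 (exact sign-flip permutation p = 0.5). In the second quantification Txnrd1 was above Nfe2l2, with means of 334 ± 102 TPM and 275 ± 122 TPM. The log2 difference of Nfe2l2 from Txnrd1 there was -0.38, -0.53 and -0.09 in libraries 1, 2 and 3. On coding transcripts it was 0.53, 0.78 and 1.39, so the order of these genes depended on the measure.

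Txnrd1-207, a retained-intron transcript of 3449 bases, held 5323, 4541 and 4386 expected counts in libraries 1, 2 and 3. The gene as a whole had 10213, 7787 and 7599 expected counts, and no other transcript of it held as many. It keeps intron 5 (401 bases) and intron 7 (1965 bases) of Txnrd1-206 whole, and 68.6% of its length lies outside all coding exons. The noncoding share of Txnrd1 was 78.3% ± 4.8 by abundance and 65.4% ± 4.3 by expected counts, so it did not rest on short transcripts alone. The exon ends that open the 2 retained introns are shown in the same form, from GENCODE M21 on mm10, plus strand, at chr10:82879319-82879378 and chr10:82881919-82881978.
Txnrd1-207 intron 5: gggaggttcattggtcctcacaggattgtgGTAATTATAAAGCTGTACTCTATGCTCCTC
Txnrd1-207 intron 7: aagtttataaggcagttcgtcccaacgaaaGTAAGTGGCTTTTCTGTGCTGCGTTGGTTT
Both introns begin with GT, and both were present in the transcript with the most reads. The coding transcripts of Txnrd1 summed to 48.7, 35.1 and 45.7 TPM, a mean of 43.2 ± 7.15 TPM and rank 406.

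Eid3, a separate protein-coding gene, lies whole inside intron 1 of Txnrd1-206 on the same strand. It held 3580, 3168 and 3937 expected counts, or 121, 121 and 228 TPM, in libraries 1, 2 and 3. A read of the unspliced Txnrd1 intron and a read of Eid3 have the same sequence and strand there, so the tables cannot tell them apart.

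Slc7a11 (ENSMUSG00000027737.10, chromosome 3, 49892526 to 50443614, minus strand) encodes the light chain of the cystine and glutamate exchanger that feeds glutathione synthesis. It had 16.2, 9.11 and 23.8 TPM in libraries 1, 2 and 3, a mean of 16.4 ± 7.33 TPM and rank 2573. Almost none of it was assigned to coding transcripts. The noncoding share was 97.4%, 98.4% and 98.7% of abundance, and 93.8% ± 2.1 of expected counts. On coding transcripts Slc7a11 had 0.42, 0.15 and 0.31 TPM, which put it at rank 10008 and below every other detected gene of the set.

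The leading transcript, Slc7a11-204, is a single exon of 2677 bases that runs from exon 1 through 2056 of the 4069 bases of intron 1. It held 756, 439 and 675 of the gene's 1199, 587 and 1020 expected counts. Slc7a11-202, which keeps 2018 of the 33820 bases of intron 6, held 341, 116 and 300. Unspliced Slc7a11 RNA has the same sequence in these introns. Its reads and those of Slc7a11-204 and Slc7a11-202 cannot be told apart there. The exon 1 end is at chr3:50442955-50443014 on the minus strand of mm10, from GENCODE M21, with the intron in capitals.
Slc7a11-204 intron 1: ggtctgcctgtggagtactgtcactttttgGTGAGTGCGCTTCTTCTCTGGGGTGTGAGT
Gm37498, a feature of the unconfirmed class TEC, lies inside intron 6 on the same strand and held 418, 130 and 233 expected counts, again lowest in library 2. Its reads and those of unspliced Slc7a11 RNA cannot be told apart there. The Slc7a11 gene spans 551089 bases, the longest of the set.

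Srxn1 (ENSMUSG00000032802.8, chromosome 2, 152105516 to 152111376, plus strand) encodes sulfiredoxin, which repairs over-oxidised peroxiredoxins. It had 7.32, 15.7 and 23.6 TPM in libraries 1, 2 and 3, a mean of 15.5 ± 8.14 TPM, rank 2677. Library 1 was lowest both in TPM and in reads, with 493 expected counts against 987 and 982. In contrast to Slc7a11, 98.8% ± 2.1 of its abundance was the coding transcript Srxn1-201. In the second quantification the noncoding share of Srxn1 was 24.2%. Slc7a11 and Srxn1 were not apart, at 0.12 ± 0.96 in log2 (exact sign-flip permutation p = 0.75), and on coding transcripts Slc7a11 was 5.2 below Srxn1 in log2.

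Hmox1 (ENSMUSG00000005413.8, chromosome 8, 75093621 to 75100589, plus strand) encodes heme oxygenase 1, which degrades heme. It had 5.74, 8.73 and 12.2 TPM in libraries 1, 2 and 3, a mean of 8.87 ± 3.21 TPM, rank 3970. Its coding transcript Hmox1-201 held 74.7% ± 3.55 of the abundance, and the retained-intron transcript Hmox1-202 held the rest. Hmox1 lay below Srxn1 in 3 of 3 libraries, by a mean of 0.71 ± 0.32 in log2 (exact sign-flip permutation p = 0.25). In the second quantification that difference was 0.34 ± 0.32, with library 1 at -0.02, and the pair was not apart.

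Gclc and Gclm encode the catalytic and modifier subunits of glutamate-cysteine ligase, the rate-limiting enzyme of glutathione synthesis. Gclc (ENSMUSG00000032350.9, chromosome 9, 77754535 to 77794485) had 2.95, 3.14 and 4.05 TPM, a mean of 3.38 ± 0.588 TPM. Gclm (ENSMUSG00000028124.15, chromosome 3, 122245557 to 122270732) had 1.19, 1.55 and 5.33 TPM, a mean of 2.69 ± 2.29 TPM. Library 3 was far above the others, and the mean without it was 1.37 TPM. Its reads did not show that step, at 29, 52 and 50 expected counts in libraries 1, 2 and 3. In library 3 more of them were placed on short transcripts. Gclm-207, of 292 bases, held 0.9, 0 and 2.4 expected counts, and Gclm-205, of 495 bases, held 2.2, 0 and 9. By abundance Gclm-207 held 27.9%, 0% and 36%, and Gclm-205 held 22.9%, 0% and 40%. The part of these transcripts in the TPM step was not tested. In reads, Gclc held more in every library, at 201, 213 and 200 expected counts. In TPM the 2 subunits were not apart, at 0.61 ± 0.87 in log2 (exact sign-flip permutation p = 0.5), and the difference without library 3 was 1.11. In log2 CPM it was 2.26 ± 0.45, with 1 sign in 3 of 3 libraries. Gclm and Keap1 were not apart in TPM either, at 0.01 ± 0.71 (p = 1 in the same permutation test).

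Nqo1 (ENSMUSG00000003849.8, chromosome 8, 107388225 to 107403206, minus strand) encodes a quinone reductase and is widely used as a marker of Nrf2 activity. It was the one gene below the detection limit, with 4, 2 and 3 expected counts in libraries 1, 2 and 3. Its level was 0.11, 0.06 and 0.14 TPM, and the deposited credible bounds ran from 0.033 to 0.249, 0.009 to 0.189 and 0.032 to 0.348 TPM. It has a single annotated transcript. The second quantification gave 4, 4 and 5 counts. Keap1, the next gene up, exceeded it by 3.48 ± 1.06 in log2 (3 of 3 libraries, exact sign-flip permutation p = 0.25). Since Nqo1 was below detection, the size of this step depends on the pseudocount, and it was 1.56 with a pseudocount of 1 and 4.31 with 0.01.

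In the order of mean level, 5 of 9 neighbouring pairs were apart, meaning the same sign in 3 of 3 libraries and a mean difference above its SD. Among detected genes the widest step was Txnrd1 over Slc7a11, at 3.71 ± 0.37 in log2. Hmox1 exceeded Gclc by 1.32 ± 0.33, but in log2 CPM, with no length correction, by 0.06 ± 0.23 with library 1 at -0.2, where the pair was not apart. Sqstm1 exceeded the median of the other 9 genes by 6.94, 6.16 and 6.19, a mean of 6.43 ± 0.44 in log2. The 7 enzyme and transporter genes, by their median, lay 1.42 ± 0.24 below the mean of Nfe2l2 and Keap1. Those 2 genes were far apart, at 256 TPM for Nfe2l2 and 2.49 TPM for Keap1. Of the 7, only Nqo1 had a mean TPM below that of Keap1, and Gclm was close to it at 2.69 TPM. In the second quantification Gclm (3.96 TPM) was below Keap1 (4.51 TPM) as well. On coding transcripts Gclm (1.89 TPM) and Slc7a11 (0.293 TPM) were also below Keap1 (2.01 TPM). The median of the 10 genes lay 1.05 ± 0.21 above that of detected protein-coding genes, with the same sign in 3 of 3 libraries.

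The 9 genes with a noncoding transcript fell into 2 kinds by transcript class, and Nqo1 has none. Sqstm1, Nfe2l2, Txnrd1 and Slc7a11 had noncoding shares between 66% and 98.2% of abundance. The other 5 with a noncoding transcript, Keap1, Hmox1, Gclm, Gclc and Srxn1, had between 1.2% and 25.3%. In the second quantification the shares of these 5 were higher, at 43% for Keap1, 36.2% for Hmox1, 47.9% for Gclm, 46.7% for Gclc and 24.2% for Srxn1, where the median of all genes was 54.6%. The first 4 had between 65.1% and 95.3% there. By abundance in the first tables, the median over 8986 detected protein-coding genes with a noncoding transcript was 44.9%, with quartiles of 24.5% and 63.6%. The 4 high shares exceeded those of 77.6% (Nfe2l2) to 99.1% (Slc7a11) of these genes. In the second quantification they exceeded those of 64.8% (Nfe2l2), 72.3% (Txnrd1), 83.4% (Sqstm1) and 97.2% (Slc7a11). Nfe2l2 and Txnrd1 then lay under the upper quartile of 72.8%. By expected counts the 4 shares exceeded those of 57% (Sqstm1) to 97.5% (Slc7a11) of genes. Keap1 and Gclm varied most, from 0% to 30% and from 0% to 40% between libraries. All these shares follow the annotated class of the transcripts. Where a noncoding transcript holds intron sequence, its reads cannot be told from those of unspliced RNA of the gene.

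A noncoding transcript led in 4 of the 9 genes with several transcripts, against 31.4% of the 10167 detected protein-coding genes with several transcripts, so the count was near the background. By expected counts it led in 3 of 9 genes, against 20.9%, since Sqstm1-201 then came first. In the second quantification it led in 6 of 9 genes, against 46.1%, with Keap1 and Gclm added. Nfe2l2, Txnrd1 and Slc7a11 had a noncoding leader in each of the 3 measures. The share of Sqstm1 was the one that moved most among the 4, from 75.7% of abundance to 32.2% of counts, where it exceeded 57% of genes.

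**Figure D3:**
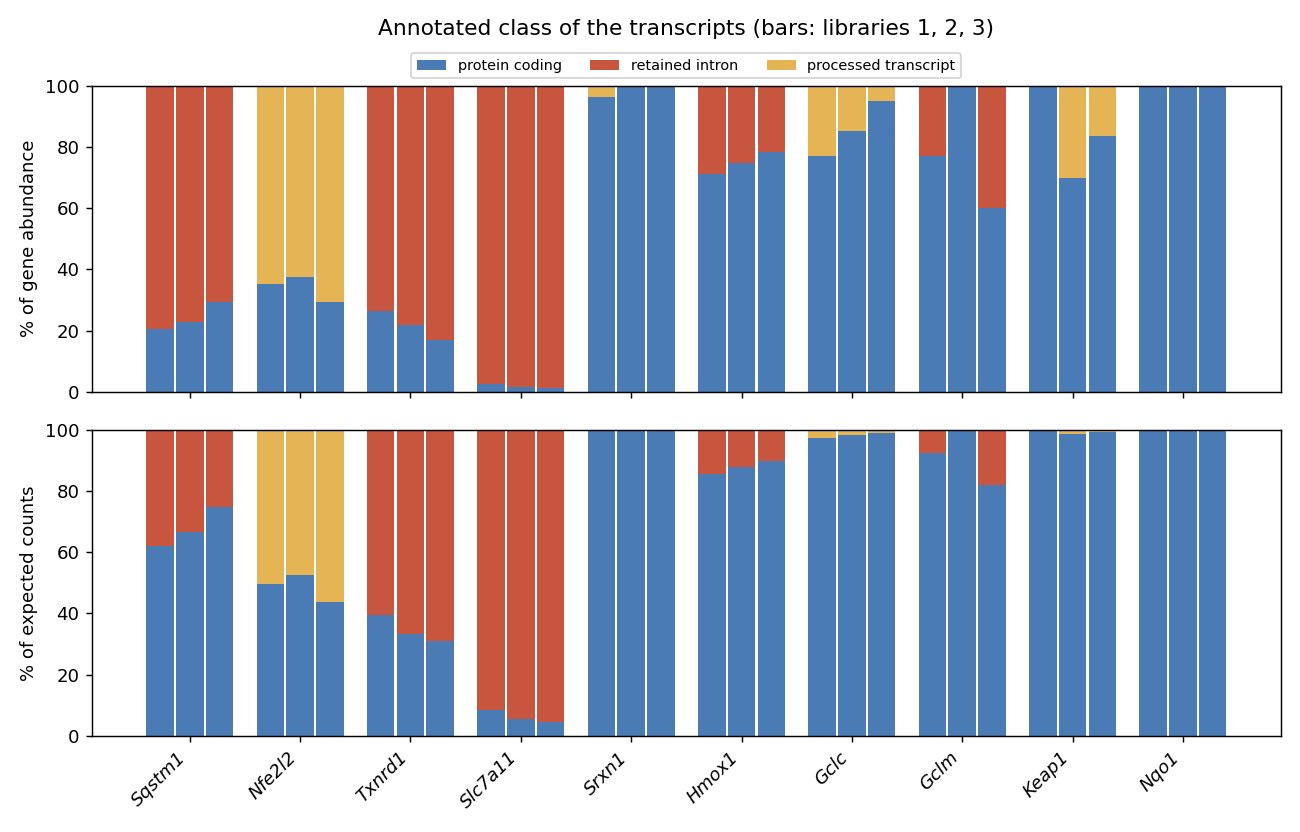
Share of each gene's abundance (top, %) and of its expected counts (bottom, %) by annotated transcript class, with bars for libraries 1, 2 and 3 from left to right within a gene. Slc7a11 is almost all retained intron in both panels, while for Sqstm1 the retained-intron part is 75.7% on average at the top and 32.2% at the bottom.

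**Figure D4:**
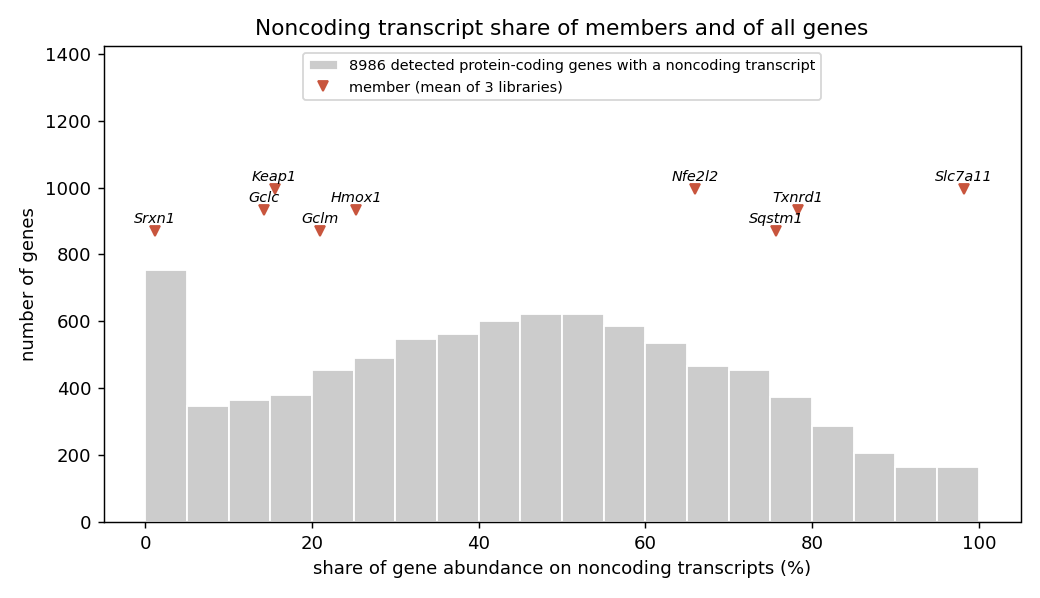
Mean share of abundance on noncoding transcripts for 9 genes of the set (triangles, % on the horizontal axis, heights only for legibility) over the histogram of the same share in 8986 detected protein-coding genes (number of genes). Nfe2l2, Sqstm1, Txnrd1 and Slc7a11 lie above the upper quartile of 63.6%, and the other 5 lie at or below 25.3%.

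Between libraries, the spread of these genes was tested with edgeR's quasi-likelihood fit against genes of like abundance. None of the 9 tested passed an adjusted p of 0.05 (Benjamini-Hochberg), against 0% of the 13309 genes tested. At an unadjusted p under 0.05, 1 of 9 passed, against 4.92% of all genes. That gene was Slc7a11, and Srxn1 came next, each with an adjusted p of 0.992 in edgeR. DESeq2 named 96 dispersion outliers among 23976 genes, and 0 of the 10. With so small a share, that 0 does not set the 10 genes apart.

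The range between libraries on the log2 CPM scale, which is reads relative to library size with TMM scaling and no length correction, went from 0.23 for Gclc to 1.11 for Slc7a11 among the detected 9. It was above the median range of all detected genes, 0.54, for 5 of 9. In log2 TPM all 9 were highest in library 3, but the median of all detected genes was also shifted there by 0.52, against -0.37 in library 1 and -0.14 in library 2. In log2 CPM, where that median moved by at most 0.01, none of the 9 was highest in library 3. Sqstm1, Nfe2l2, Txnrd1 and Slc7a11 were highest in library 1, which was made from the most RNA, and the other 5 in library 2. Some of these places were near ties, as Nfe2l2 had 9.12 in library 1 and 9.11 in library 3, and Gclc had 3.71 in libraries 1 and 2. The part of the amount of RNA in this was not tested.

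**Figure D5:**
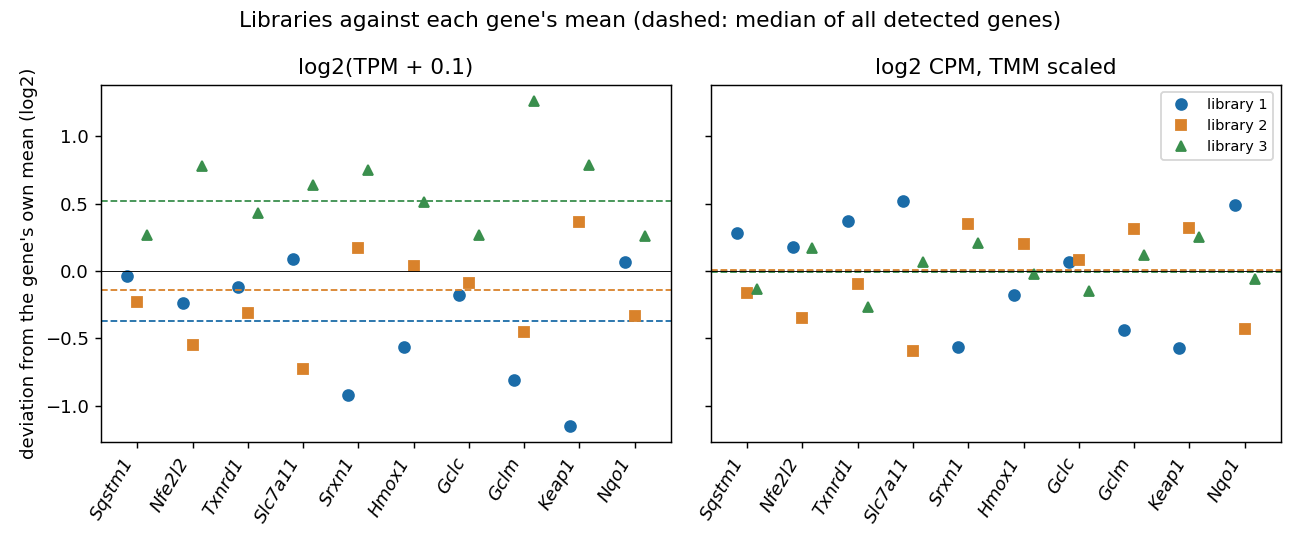
Deviation of each library from the gene's own mean in log2(TPM + 0.1) (left) and in log2 CPM with TMM scaling (right), with the median deviation of all detected genes as dashed lines. Library 3 is highest for each gene on the left, where its dashed line lies at 0.52, and for no detected gene on the right, where Nfe2l2 is near a tie with library 1.

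Antioxidant response elements were looked for in RefSeq promoter windows of build GRCm38.p6, from 250 bases before to 50 after the start. The core TGACNNNGC was searched on both strands. Of the 10 genes, 8 have a window in the table, and Hmox1 and Gclc do not. The core was found in 4 of the 8 (Nfe2l2, Gclm, Txnrd1 and Srxn1), against 14% of all 27025 genes. By windows it was found in 4 of their 10, against 12.4% of all 32851. Elements further from the start were not searched for. In Srxn1 the match lies after the start, and its window also holds TGANTCAGC, a related form searched after the data were seen and found in 1.2% of windows. A longer form of the element was found in 1 of the 8, Txnrd1, against 0.9% of genes.

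The promoter stretches before the start are shown because these are 4 genes of the pathway whose levels differ widely, from 256 TPM for Nfe2l2 to 2.69 TPM for Gclm. Each is read 5′ to 3′ on the strand of its gene with the match in capitals. In Gclm and Txnrd1 the match is the reverse complement of the core, and in Srxn1 it is TGANTCAGC and not the core. They lie at chr2:75704875-75704913 (minus strand), chr3:122245393-122245451 (plus strand), chr10:82859084-82859142 (plus strand) and chr2:152105449-152105507 (plus strand), in the order printed.
Nfe2l2: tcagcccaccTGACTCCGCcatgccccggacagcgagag
Gclm: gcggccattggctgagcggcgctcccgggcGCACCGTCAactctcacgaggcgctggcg
Txnrd1: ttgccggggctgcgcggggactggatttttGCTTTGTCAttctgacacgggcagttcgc
Srxn1: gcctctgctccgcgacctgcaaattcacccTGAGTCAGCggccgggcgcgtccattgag
The matches begin 240, 134, 92 and 45 bases before the start in Nfe2l2, Gclm, Txnrd1 and Srxn1. A match is a string of letters and not a measured binding site. The match of Nfe2l2 lies inside E030042O20Rik, the noncoding neighbour.

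Around these genes, all 17 of the other regulators and partners of Nrf2 were detected, with a median level of 8 ± 2.81 TPM, against 4.94 ± 1.75 TPM for detected protein-coding genes. The 10 genes themselves had a median of 11.1 ± 5.98 TPM. The highest regulators were the small Maf genes Mafg (40 TPM) and Maff (37.2 TPM), whose products pair with Nrf2, followed by Bach1 (36.6 TPM), a repressor at the same elements, and Gsk3b (36 TPM), a kinase that marks Nrf2 for degradation. Cul3, the scaffold of the Keap1 ligase, had 12.1 TPM.

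Of 32 other reported Nrf2 targets, 26 were detected, and the median of the list was 3.86 ± 1.44 TPM. The iron-storage genes Fth1 (400 TPM) and Ftl1 (312 TPM) were the highest, above Nfe2l2 and Txnrd1, and were followed by the glutathione-conjugate exporter Abcc1 (40.3 TPM) and Pgd of the pentose phosphate pathway (37.1 TPM). Fth1 and Ftl1 have near-identical pseudogene copies, so their levels are uncertain. Gpx2 had 0 counts in all libraries, and Gstp1 averaged 2.57 counts. Like Nqo1, they were below detection.

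Of 26 autophagy receptors and machinery genes, 25 were detected, and their list's median was 11.7 ± 5.87 TPM. None came near Sqstm1: the highest were Tbk1 (93.8 TPM), a kinase that phosphorylates p62, the receptor Tax1bp1 (62.2 TPM), the conjugation enzyme Atg7 (61 TPM) and Rb1cc1 (55.9 TPM) of the initiation complex. Map1lc3a, a relative of LC3B, was undetected at 8 counts. All 15 early NF-kB response genes were detected, with a median level of 383 ± 185 TPM, below Sqstm1 and above the rest of the 10.

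The 5 protein-coding genes whose TPM was closest to that of Sqstm1 over the 3 libraries were Irf1, Ccnl1, Rbm39, Sirpa and H2-D1. Likeness was the root-mean-square difference in log2(TPM + 0.1), which was 0.12 for Irf1 and Ccnl1, 0.16 for Rbm39, 0.18 for Sirpa and 0.19 for H2-D1. Their coding transcripts were less alike, at 486 TPM for Irf1, 8.6 TPM for Ccnl1, 155 TPM for Rbm39, 202 TPM for Sirpa and 464 TPM for H2-D1, against 184 TPM for Sqstm1. H2-D1 belongs to a family of near-identical genes, so its level is uncertain.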

How the data were processed

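Chromatin-fraction total RNA was measured in 3 libraries of 1 group. Per the file headers, the deposited gene and first transcript tables hold expected counts, TPM, posterior mean TPM with credible bounds (a signal on the TPM scale, as deposited, of a level that is not stated) and, per transcript, percent of gene abundance. The second transcript table deposited by the authors holds estimated counts and TPM. Build mm10 and GENCODE M21 are per the deposited file notes. The sources used here name no tool, version or strand setting. Rows that name no annotated gene (26345) held 1.032%, 0.245% and 0.218% of counts and were left out.

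Levels are TPM, and differences are in log2(TPM + 0.1), tested over libraries by an exact sign-flip permutation, two-sided. The spread test used edgeR 4.0.16 in R 4.3.3 on whole-number rounded counts, with filterByExpr, TMM scaling and an intercept-only fit at adjusted p 0.05. Checked on simulated counts of 12990 genes, it called 65 of 100 genes changed 4-fold in 1 library and 100 of 100 changed 8-fold. DESeq2 1.42.0, Python 3.11.15 and pandas 2.3.3 were also used. Named genes were the 10, and the 4 highest and up to 2 undetected of each pathway list. The 3 highest markers of each kind and the 5 genes nearest to Sqstm1 were also named. Cul3, Cd3d and the neighbouring genes were named after their values were seen. The genes and lists were chosen with earlier results of these data known. Alternatives were other pseudocounts, the second quantification, posterior mean TPM, CPM, other filters and motifs, and leaving out each library. Summing only coding transcripts was added after seeing the data.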

Additional observations from a re-analysis of the deposited data

How the results depend on the processing

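Under the alternatives tried no difference that was called apart changed sign, but 2 calls were lost: Srxn1 minus Hmox1 was 0.34 in the second quantification and Hmox1 minus Gclc was 0.06 in log2 CPM. Of the pairs not apart, Nfe2l2 minus Txnrd1 was -0.34 in the second quantification and 0.9 on coding transcripts. Slc7a11 minus Srxn1 was -5.2 on coding transcripts, and Gclm minus Keap1 was -1.51 in log2 CPM. Of the values of the main comparisons, 56 stayed close and 15 moved. The median of the 10 genes minus that of detected protein-coding genes, 1.05 in log2, was 0.82 in the second quantification and 0.69 on coding transcripts. Sqstm1 minus the median of the others, 6.43, was 5.79 in log2 CPM and 5.9 on coding transcripts. The median of the 7 enzyme and transporter genes minus the mean of Nfe2l2 and Keap1, -1.42, was -2.15 in log2 CPM and -2.05 on coding transcripts. On coding transcripts 8 of 9 neighbouring pairs were apart, against 5. The median noncoding share over the 9 genes with a noncoding transcript, taken in each library and averaged, 32.9%, was 52.3% in the second quantification and 14.9% by expected counts. Genes past the spread test, 0 of 13309 in edgeR, numbered 117 of 23976 with no filter and 96 of 23976 as DESeq2 outliers. They numbered 17 of 13616 without library 1, 49 of 13621 without library 2 and 0 of 13484 without library 3. None of these was one of the 10, and with shares this small that does not set the 10 genes apart. The 4 promoter matches became 1 with the longer motif and 1 with TGANTCAGC. The causes were not tested. No paired analysis was possible because there is 1 group. The second quantification gave a higher mean TPM for all 10 genes, 1.07-fold for Nfe2l2 to 1.89-fold for Gclc. Depth limits Nqo1, Gclm and Keap1 most, and the transcript shares of Keap1 and Gclm rest on few counts.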
